A study of Mus musculus with 56 samples.

Results

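The 10 genes described here, Nampt, Nnmt, Nmnat1, Nmnat3, Nmrk1, Sirt1, Sirt3, Sirt6, Parp1 and Cd38, make, methylate or consume NAD and its precursor nicotinamide. They were listed by symbol, with earlier results of these data known, and all 10 were found among the 25939 genes of the table. RNA was measured in 56 libraries of VAT (visceral adipose tissue). The female C57BL/6J mice were 9 weeks old and had spent 7 days on feeding restricted to daytime (DRF) or to nighttime (NRF, the reference), in cycles of 12 h light and 12 h dark with normal chow, after a first week of free feeding. Each regimen was sampled at ZT0, 4, 8, 12, 16, 20 and 24, with ZT0 as lights on, and each of the 14 groups held 4 libraries. The labels number the libraries within a group and do not say whether each came from an animal of its own, so p-values measure the spread between these libraries. The hours of food access are not given in the sources used here, and hours into a food phase assume food from ZT0 to ZT12 under DRF and from ZT12 to ZT24 under NRF. The tissue was taken whole, so adipocytes are measured together with vessels, immune cells and mesothelium. The question addressed is how the time of feeding moves the diurnal expression of these genes.

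NAD is a redox cofactor that is also used up by signalling enzymes, which release nicotinamide. NAMPT turns nicotinamide into nicotinamide mononucleotide (NMN), NMNAT enzymes turn NMN into NAD, and nicotinamide riboside enters through NMRK1. NNMT takes nicotinamide out of this cycle by methylating it, and is known as an abundant enzyme of fat. Sirtuins, PARP1 and CD38 cleave NAD, and Nampt is a known target of the circadian clock, with SIRT1 acting on the clock proteins in turn.

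Upstream sequences were read for the members, because diurnal genes are often described through the E-box (CACGTG), the E'-box (CACGTT) and the D-box (TTANGTAA) that clock factors bind. RefSeq windows of GRCm38.p6 were matched for 9 members, in 12 windows, and Nnmt had no entry. Only the 250 bases before each start were searched, on both strands. CACGTG was present in the windows of Sirt1 and Parp1, CACGTT and TTANGTAA in 0 member windows. Among all 32851 windows of that length, 6.02% held CACGTG, 3.85% CACGTT and 2.06% TTANGTAA. The windows of Sirt1 and Parp1 are shown 5′ to 3′, with the motif in capitals, as the members that hold it, and that of Nampt as the member with the largest fitted NRF amplitude, which lacks it. They are chr10:63339036-63339285 on the minus strand, chr1:180568641-180568890 on the plus strand and chr12:32820085-32820334 on the plus strand.
Sirt1: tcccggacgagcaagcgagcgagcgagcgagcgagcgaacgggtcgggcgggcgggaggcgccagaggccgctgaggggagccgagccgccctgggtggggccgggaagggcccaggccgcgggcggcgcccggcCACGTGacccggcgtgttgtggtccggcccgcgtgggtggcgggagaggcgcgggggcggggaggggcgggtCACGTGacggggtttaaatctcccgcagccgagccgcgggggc
Parp1: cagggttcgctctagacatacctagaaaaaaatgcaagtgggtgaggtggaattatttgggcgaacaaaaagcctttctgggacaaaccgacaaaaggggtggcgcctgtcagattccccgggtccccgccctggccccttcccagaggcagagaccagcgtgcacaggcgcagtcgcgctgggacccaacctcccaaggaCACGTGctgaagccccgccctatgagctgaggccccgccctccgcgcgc
Nampt: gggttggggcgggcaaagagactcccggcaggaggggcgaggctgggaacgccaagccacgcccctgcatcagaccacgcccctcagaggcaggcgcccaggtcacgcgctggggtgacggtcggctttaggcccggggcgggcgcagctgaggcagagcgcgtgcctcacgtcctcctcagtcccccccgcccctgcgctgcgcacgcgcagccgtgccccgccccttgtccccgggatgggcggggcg
The CACGTG copies of Sirt1 began 115 and 43 bases before the start, and that of Parp1 began 49 bases before it. The RefSeq starts lie inside the gene intervals given with the values for Sirt1, Nampt, Nmnat3, Cd38 and Nmrk1 and for at least 1 window of Nmnat1, Sirt3 and Sirt6, so starts outside the windows were not covered. A match of letters describes the window and is not a measured binding site.

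Levels are given as log2(CPM + 1), where CPM is the read count scaled to an effective library size, both recovered from the deposited values. Between 31144102 and 41246347 reads on genes were recovered per library. The effective size is not this sum of reads, and lay above it in some libraries and below it in others. In the DRF library ZT8 replicate 1, with 31797538 reads on genes, it was larger, so CPM values there are lower than scaling to those reads would give. VAT was checked by its markers: the summed level of 6 adipocyte markers, among them Adipoq and Plin1, ranged from 10838 to 42080 CPM. A pair of DRF libraries, ZT8 replicate 1 and ZT0 replicate 4, stood apart, with 328 and 706 CPM of 5 uterine and oviduct epithelium markers against at most 53.3 CPM in the other libraries. These 2 libraries also had adipocyte sums of 10838 and 15727 CPM, against at least 18866 CPM in the others. The library ZT8 replicate 1 was the lowest of the 28 DRF libraries for 6 of the 10 members, so values that move with these libraries are given with and without them. Whether a gene was lower because of fewer cells of a type or less RNA per cell cannot be told apart in such samples.

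Per kilobase of exon, Nnmt was the most abundant member, with 60.5 ± 20.3 CPM per kb (SD, n = 56), followed by Nampt with 32.2 ± 7.80 and Parp1 with 13.1 ± 1.56. Cd38 was at 8.07 ± 1.34 CPM per kb, Nmnat1 at 4.86 ± 0.827 and Nmnat3 at 3.85 ± 1.24. Sirt6 was at 3.11 ± 0.360, Sirt1 at 2.94 ± 0.472, Sirt3 at 2.43 ± 0.307 and Nmrk1 at 2.02 ± 0.256 CPM per kb. The ranges over the 56 libraries overlapped for 9 of the 9 pairs of neighbours in this order, so only steps across several ranks separated the libraries fully. All members were well covered, from 198 to 338 reads per library for Nmrk1 up to 3833 to 9488 reads for Nampt. The exon length of Nmrk1 was taken from the deposited values, because the reference length did not give whole reads.

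**Figure D1:**
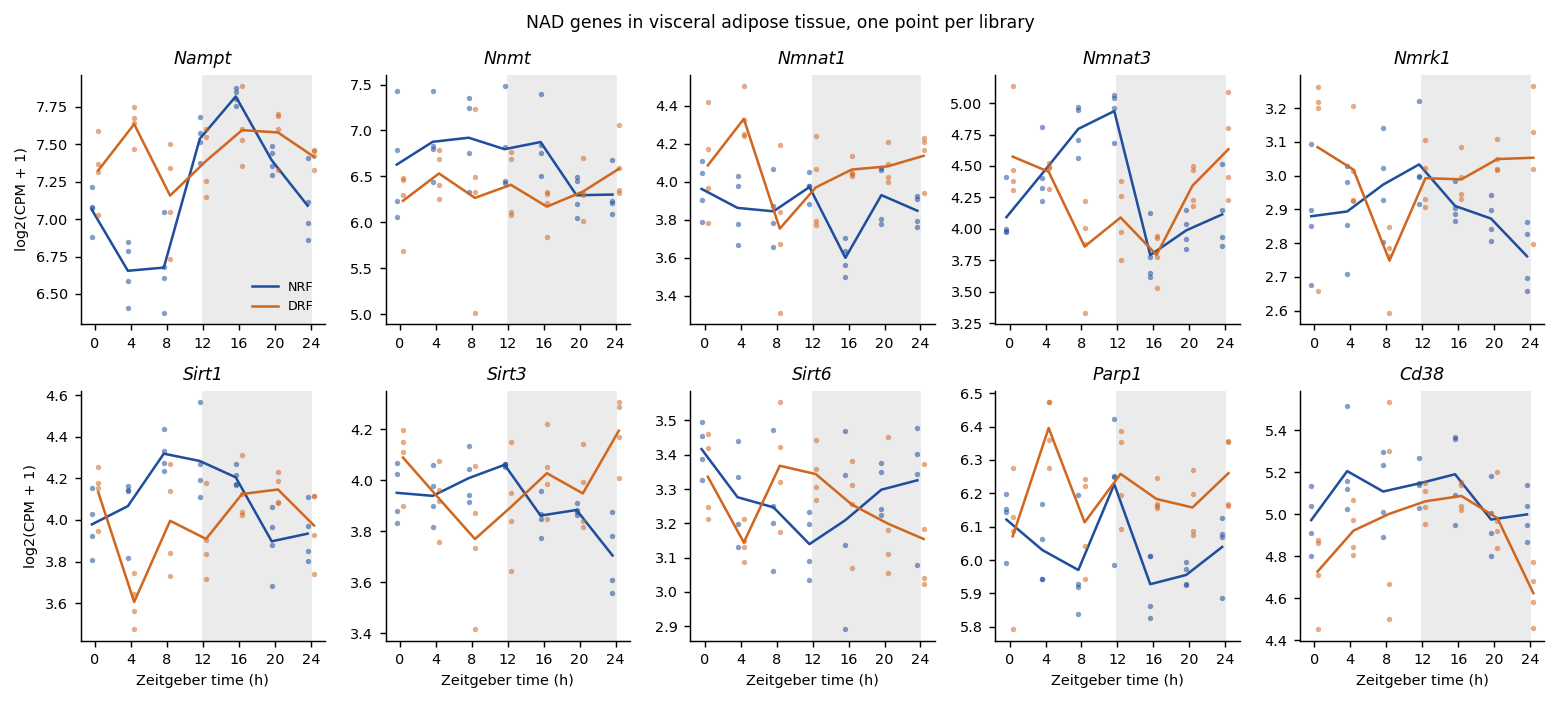
Level of each member in every library, as log2(CPM + 1) against zeitgeber time in hours, with NRF in blue and DRF in orange, lines through the means of 4 libraries and the dark phase shaded. Nampt under NRF runs from 6.65 at ZT4 to 7.82 at ZT16 on average, while the DRF means stay between 7.16 and 7.64.

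Nampt (ENSMUSG00000020572, chromosome 12, 32819545 to 32853349, plus strand, GRCm38) encodes the rate-limiting enzyme of NAD salvage. Under NRF, its level was 6.78, 6.85, 6.59 and 6.40 in the 4 libraries at ZT4, and 7.85, 7.88, 7.80 and 7.76 at ZT16. The groups did not overlap, and the mean was 2.24-fold higher at the peak at ZT16 (7.82 ± 0.05, SD, n = 4) than at the trough at ZT4 (6.65 ± 0.20, SD, n = 4). These groups were picked as the highest and lowest means of the profile. Groups picked in this way did not overlap for 7 of the 10 members under NRF and 4 under DRF, and the share over all genes was not computed. Under DRF, the highest mean was at ZT4, with 7.64, 7.47, 7.75 and 7.68, and the lowest at ZT8, with 6.74, 7.05, 7.50 and 7.34, and these groups overlapped. The gene was thus near its DRF maximum at the time of its NRF minimum. The difference between regimens at ZT4 was 0.98 (log2, SE 0.14), a 1.97-fold higher level under DRF, with an adjusted p of 9.79e-07 in limma. At ZT8 it was 0.48 (SE 0.14, adjusted p = 0.00975), and 0.62 without the pair of libraries apart. From ZT12 to ZT24 no time point passed, with differences between -0.23 at ZT16 and 0.33 at ZT24.

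Nampt was rhythmic under NRF, with an adjusted p of 0.000502 in the combined JTK_CYCLE and Lomb-Scargle test, and was not called under DRF (adjusted p = 1). The fitted 24-h cosine had an amplitude of 0.58 (log2, SE 0.06) and a peak at 16.6 h (SE 0.37) under NRF. Under DRF the amplitude was 0.12 (SE 0.06), with a peak time of 19.2 h (SE 1.86) that is poorly determined at this amplitude. The difference in amplitude was -0.46 (SE 0.09). The rhythm itself differed between regimens in clock time (limma F test, adjusted p = 2.40e-05) and after the DRF profile was moved by 12 h to match the phase with food (adjusted p = 6.67e-07). Both differences stayed past the threshold in each of 11 alternative fits. Aligned to food, the DRF mean lay below the NRF mean at 0, 4, 8 and 24 h and above it at 12, 16 and 20 h, with no test of single aligned points. The points at 0 and 24 h share the NRF libraries of ZT12, and those of NRF ZT0 are not among these points. At 4 h into the assumed food phase Nampt was at 7.64 under DRF (ZT4) and 7.82 under NRF (ZT16), whereas 16 h after its start it was at 7.59 under DRF (ZT16) and 6.65 under NRF (ZT4).

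**Figure D2:**
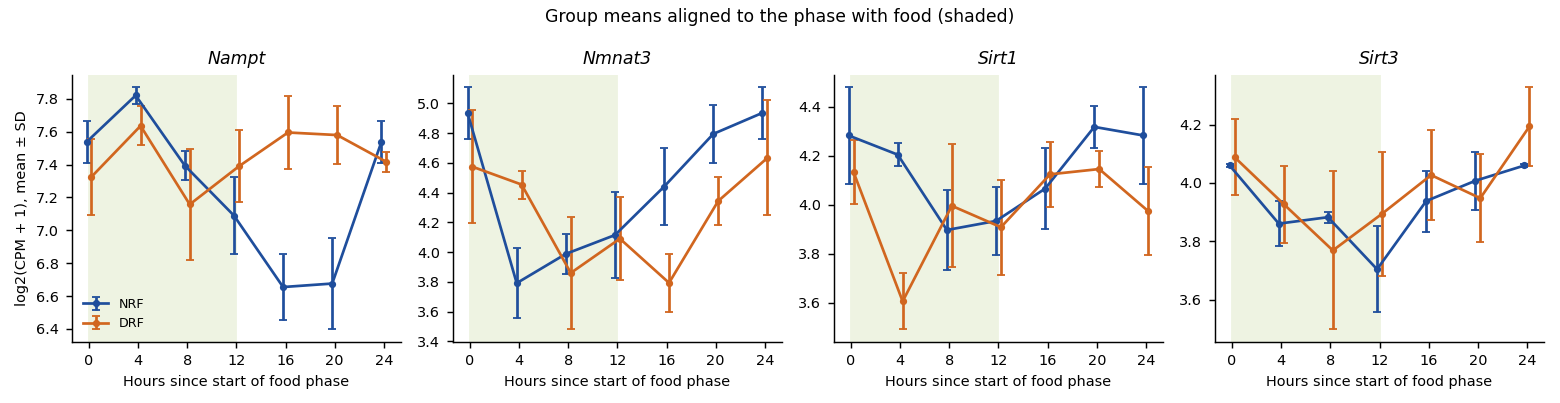
Group means ± SD (n = 4) of log2(CPM + 1) for 4 members against hours since the start of the assumed phase with food (light phase for DRF, dark phase for NRF, shaded), with NRF in blue and DRF in orange. Nampt is at 7.59 under DRF and 6.65 under NRF at 16 h, while the error bars of the Sirt3 profiles overlap at all 7 points. The NRF group at ZT12 stands at both 0 and 24 h.

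The genes most like Nampt over the 14 group means, among 14106 genes with a mean log2(CPM + 1) of at least 1, were Eif4g1 (Pearson's r = 0.93), Dusp18 (0.93), Ttc7, Notch4 and Aldh1l1 (each 0.92). Eif4g1 encodes a scaffold of translation initiation and Aldh1l1 a folate enzyme. These values describe 14 means that share their libraries. Among the members, r with Nampt ran from -0.46 for Sirt6 to 0.38 for Nmrk1 and Parp1. For Nnmt, the 5 most alike were Gm44386, Glb1l2, Ctdsp1, Kdelr1 and Esyt1, with r from 0.91 to 0.92.

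Nmnat3 (ENSMUSG00000032456, chromosome 9, 98287435 to 98420438, plus strand) encodes the NMNAT form ascribed to mitochondria. It had the second largest fitted NRF amplitude among the members. Under NRF, its level was 4.97, 4.57, 4.94 and 4.70 at ZT8, 4.68, 4.96, 5.04 and 5.06 at ZT12, and 3.62, 4.13, 3.65 and 3.78 at ZT16. The ZT12 and ZT16 groups, 4 h apart and picked as the highest and lowest NRF means, did not overlap and differed 2.21-fold. Under DRF, the level was 3.33, 3.88, 4.01 and 4.22 at ZT8 and 4.41, 4.80, 4.23 and 5.09 at ZT24. The lower level under DRF was called at ZT8 (-0.93, SE 0.18, adjusted p = 0.000157) and ZT12 (-0.85, SE 0.18, adjusted p = 0.00054), where the groups did not overlap. It was higher under DRF at ZT24 (0.52, SE 0.18, adjusted p = 0.0491), with overlapping groups. Without the pair of libraries apart, the ZT8 difference was -0.76 (adjusted p = 0.00199).

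The fitted peak of Nmnat3 was at 8.30 h (SE 0.58) under NRF and at 0.52 h (SE 0.84) under DRF, a move of -7.78 h (SE 1.02). Amplitudes were 0.51 (SE 0.08) and 0.38 (SE 0.07), a difference of -0.13 (SE 0.11). The rhythm differed in clock time (adjusted p = 2.86e-07) and after alignment to food (adjusted p = 0.00985, or 0.109 without replicate 2). The combined test gave an adjusted p of 0.0079 under NRF, which was lost without replicate 2 (0.0789). Under DRF it gave 0.0781, and 0.0432 without the pair of libraries apart. The steep step lay at the start of the food phase under NRF, from a mean of 4.94 at ZT12 to 3.79 at ZT16. Under DRF the mean was 4.57 at ZT0, 4.45 at ZT4 and 3.86 at ZT8, so the largest step between these means lay from ZT4 to ZT8.

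Nmnat1 (ENSMUSG00000028992, chromosome 4, 149467572 to 149485202, minus strand), the nuclear form, had a higher mean level under DRF and no called rhythm. At ZT4, its level was 4.03, 3.78, 3.98 and 3.66 under NRF and 4.24, 4.25, 4.50 and 4.33 under DRF. At ZT16 it was 3.50, 3.63, 3.56 and 3.70 under NRF and 4.14, 4.03, 4.05 and 4.04 under DRF. The groups did not overlap at either time, with differences of 0.47 (SE 0.12, adjusted p = 0.00496) and 0.46 (SE 0.12, adjusted p = 0.0103). The sign was positive at 5 of the 7 time points, and the difference was -0.09 at ZT8 and -0.0022 at ZT12. The rhythm of Nmnat1 was not called under either regimen (adjusted p = 1 in both). Nmrk1 (ENSMUSG00000037847, chromosome 19, 18631950 to 18652428, plus strand), the nicotinamide riboside kinase, varied little, between group means of 2.75 under DRF at ZT8 and 3.08 under DRF at ZT0. Each of these groups holds a library of the pair apart. Without the pair, the difference between regimens was -0.17 at ZT8 and 0.35 at ZT0, in place of -0.23 and 0.20. The fitted peak of Nmrk1 was at 11.0 h (SE 1.71) under NRF and 21.1 h (SE 1.36) under DRF. This difference in rhythm passed in clock time (adjusted p = 0.00892) with small amplitudes of 0.10 (SE 0.04) and 0.11 (SE 0.04). It was lost without replicate 1, 2 or 3, with adjusted p of 0.0974, 0.0701 and 0.0618.

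Nnmt (ENSMUSG00000032271, chromosome 9, 48591877 to 48605153, minus strand) encodes nicotinamide N-methyltransferase. Its mean level was lower under DRF, by -0.35 (log2, SE 0.11, adjusted p = 0.0193), a 0.784-fold level, and by -0.26 (adjusted p = 0.0369) without the pair of libraries apart. Without replicate 1 of every group it was -0.20 and was not called (adjusted p = 0.261). At ZT16, the level was 6.84, 6.76, 7.40 and 6.50 under NRF and 6.31, 6.21, 5.84 and 6.33 under DRF. These groups did not overlap, yet no single time point passed the test across genes. The difference at ZT16 was -0.70 (SE 0.30, adjusted p = 0.141), and it ranged from -0.65 at ZT8 to 0.28 at ZT24 elsewhere. Without the pair of libraries apart, it was -0.24 at ZT8 (SE 0.28) and -0.21 at ZT0 (SE 0.28), in place of -0.65 and -0.39. The sign was negative at 5 of the 7 time points.

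Nnmt was also the member that differed most between libraries of the same group. Its within-group SD was 0.43 under NRF and 0.45 under DRF, above that of 95.8% and 94.3% of the 14106 genes with a mean of at least 1, whose medians were 0.17 and 0.20. The DRF value includes the pair of libraries apart and was not computed without it. In the DRF group at ZT8, which holds a library of the pair, the SD was 0.92, against 0.23 to 0.38 in the other DRF groups. At ZT0 under NRF, for example, the level was 7.43, 6.79, 6.06 and 6.23. Across libraries, Nnmt ran with the mean level of the adipocyte markers, with Pearson's r = 0.71 over 56 libraries and 0.58 without the pair apart. The pair held the lowest values of Nnmt under DRF, 5.01 and 5.68. Of the 6 adipocyte markers, Adipoq (-0.31, SE 0.08, adjusted p = 0.00524) and Cfd (-1.37, SE 0.14) had a lower mean under DRF, and Lep (0.60, SE 0.16) a higher one. The summed level of the list ran from 22820 to 42080 CPM under NRF and from 10838 to 34891 under DRF. Progenitor markers (Dcn -0.43, Pdgfra -0.41 and Dpp4 -0.25, the 3 of 5 that were lower under DRF) and the macrophage markers also ran with Nnmt, with r = 0.38 and 0.44 (0.39 for both without the pair apart). The T cell list ran against it, with r = -0.49 (-0.54 without the pair), although of its 5 genes Trac was higher under DRF (0.80) and Cd3g lower (-0.18). The endothelial list had r = -0.18, and -0.51 without the pair. The part of these markers in the Nnmt difference was not tested. The rhythm of Nnmt was not called under either regimen (adjusted p = 0.352 under NRF and 1 under DRF).

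Sirtuins use NAD to deacylate proteins. Sirt1 (ENSMUSG00000020063, chromosome 10, 63319005 to 63381704, minus strand), the nuclear sirtuin tied to the clock, was rhythmic under NRF in the combined test (adjusted p = 0.00255). Under DRF, Sirt1 was not called by that test (adjusted p = 0.0786, or 0.425 on recovered log2(CPM + 1)) but was by the limma F test (0.0387). At ZT4 its level was 3.82, 4.14, 4.16 and 4.15 under NRF and 3.74, 3.48, 3.56 and 3.64 under DRF. Every DRF library at ZT4 lay below every NRF library, and the group was also the lowest of the DRF profile. The difference was -0.46 (SE 0.11, adjusted p = 0.00187), followed by -0.32 at ZT8 (SE 0.11, adjusted p = 0.0348, or -0.41 with adjusted p = 0.00776 without the pair of libraries apart) and -0.37 at ZT12 (SE 0.11, adjusted p = 0.013), where the groups overlapped. At ZT4, Sirt1 thus had its lowest DRF mean and Nampt its highest. The Nampt mean of 7.64 (SD 0.12) at ZT4 was close to 7.59 (SD 0.22) at ZT16 and 7.58 (SD 0.17) at ZT20. Sirt1 peaked at 10.5 h (SE 0.88) under NRF and at 18.2 h (SE 0.86) under DRF, a move of 7.68 h (SE 1.23), with amplitudes of 0.21 (SE 0.04) and 0.19 (SE 0.05). The rhythm differed in clock time (adjusted p = 0.000154). After alignment to food it differed with an adjusted p of 0.039, which passed in 6 of 11 alternative fits and ranged from 0.00501 to 0.182 over them.

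Sirt3 (ENSMUSG00000025486, chromosome 7, 140863666 to 140882309, minus strand), the main mitochondrial deacetylase, differed in its fitted 24-h cosine, with amplitude and peak time tested together. Its mean level was not called (0.03, SE 0.04). It peaked at 9.79 h (SE 1.55) under NRF and 21.7 h (SE 1.16) under DRF, a move of 11.9 h (SE 1.93). The rhythm differed in clock time (adjusted p = 0.00171), although the combined test called it under neither regimen (adjusted p = 0.222 and 0.633). At ZT24 the level was 3.87, 3.78, 3.61 and 3.56 under NRF and 4.29, 4.31, 4.01 and 4.17 under DRF, a difference of 0.49 (SE 0.10, adjusted p = 0.00091) without overlap. At ZT0, the same clock time in other libraries, NRF read 4.02, 3.88, 3.83 and 4.07 while DRF read 4.15, 4.11, 4.20 and 3.90. That difference was 0.14 and was not called (adjusted p = 0.436). Sirt6 (ENSMUSG00000034748, chromosome 10, 81621785 to 81627797, minus strand), a chromatin-bound sirtuin, had fitted peaks at 0.17 h (SE 1.64) under NRF and 11.0 h (SE 2.45) under DRF, again with no rhythm called (adjusted p = 0.105 and 0.384). Its amplitudes were 0.10 (SE 0.04) and 0.07 (SE 0.04). The rhythm difference in clock time (adjusted p = 0.0378) passed in 5 of 11 alternative fits, and in 0 of the 4 without a replicate number.

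**Figure D3:**
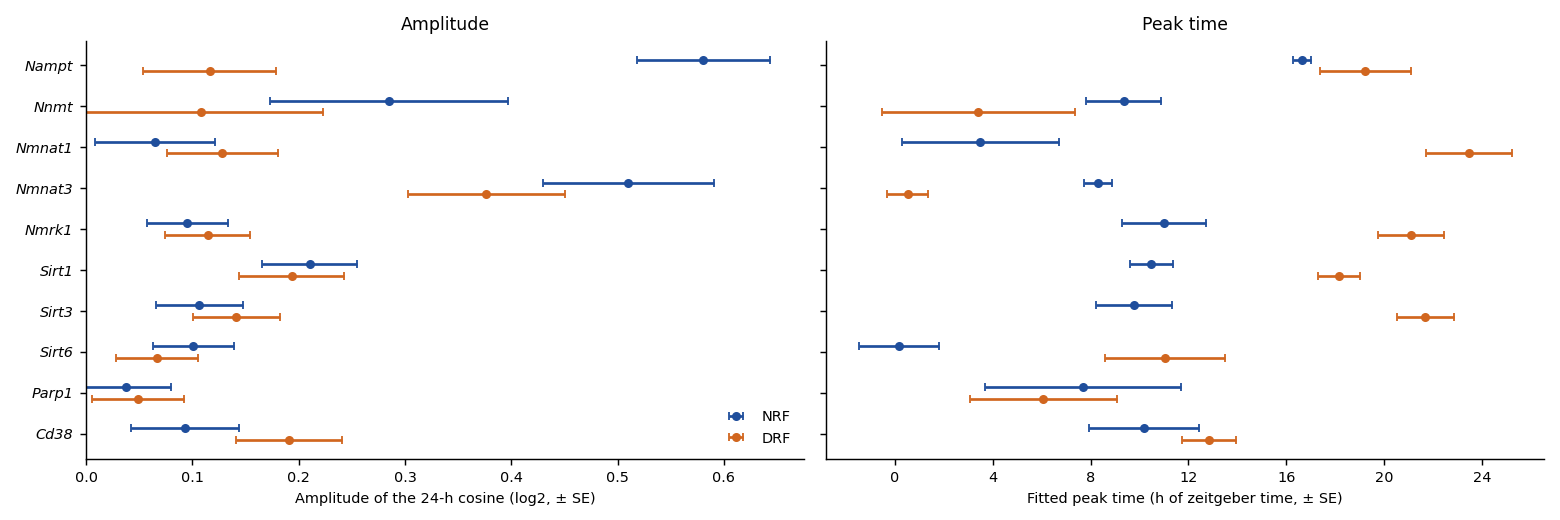
Amplitude (log2, left) and fitted peak time (hours of zeitgeber time, right) of the 24-h cosine for each member, with standard errors, NRF in blue and DRF in orange. The amplitude of Nampt falls from 0.58 to 0.12, and the fitted peaks of Nmrk1, Sirt3 and Sirt6 lie 10.1 to 11.9 h apart. The amplitudes of Nmrk1, Sirt3 and Sirt6 are 0.07 to 0.14, and the combined test called none of them rhythmic under either regimen.

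Parp1 (ENSMUSG00000026496, chromosome 1, 180568924 to 180601254, plus strand) spends NAD on poly(ADP-ribose) at DNA breaks. Its mean level was higher under DRF by 0.16 (SE 0.04, adjusted p = 0.00204), a 1.12-fold level. At ZT4 it was 6.17, 5.94, 5.94 and 6.06 under NRF and 6.36, 6.28, 6.47 and 6.47 under DRF, a difference of 0.37 (SE 0.09, adjusted p = 0.00187). The groups did not overlap at ZT4, nor at ZT16, ZT20 and ZT24, where the differences of 0.26, 0.20 and 0.22 were not called. At ZT0 the difference was -0.05, and 0.04 without the pair of libraries apart. No rhythm was called (adjusted p = 1 under both regimens), with amplitudes of 0.04 (SE 0.04) and 0.05 (SE 0.04). These were the smallest fitted amplitudes of the 10 members under either regimen. Cd38 (ENSMUSG00000029084, chromosome 5, 43868553 to 43912375, plus strand) encodes a surface enzyme that hydrolyses NAD and is known from immune cells. Its mean level was lower under DRF by -0.16 (SE 0.05, adjusted p = 0.0269), with a negative sign at 6 of the 7 time points and no single time point called. The difference at ZT8 was -0.11, and 0.01 without the pair of libraries apart. At ZT24 the level was 5.04, 4.87, 5.14 and 4.95 under NRF and 4.77, 4.68, 4.46 and 4.58 under DRF, without overlap (-0.37, SE 0.14, adjusted p = 0.0675).

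Cd38 moved beside markers of other cells. Of the 5 macrophage markers, 3 had a lower mean under DRF, namely Adgre1, Csf1r and Mrc1 (-0.26 to -0.34). The summed level of all 5 ran from 652 to 1728 CPM under NRF and from 570 to 1089 CPM under DRF. Of the 5 progenitor markers 3 were lower, and of the 5 B cell markers 0. B cell markers summed to 3.94 to 27.7 CPM over all libraries. Over 56 libraries, Cd38 correlated with the macrophage list with r = 0.46 and with the progenitor list with r = 0.42, as a description. The part of these cells in the Cd38 difference was not tested. After alignment to food, the rhythm of Cd38 differed (adjusted p = 0.016), while in clock time it was not called (adjusted p = 0.345). The aligned difference was lost without the ZT24 libraries (adjusted p = 0.142) and without replicate 2 (0.215) or replicate 4 (0.106). Its fitted peaks lay at 10.2 h (SE 2.24) under NRF and 12.8 h (SE 1.12) under DRF. The combined test gave Cd38 an adjusted p of 0.0529 under DRF and 0.0344 without the pair of libraries apart.

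Counted over the members, 3 of 10 were rhythmic under NRF (Nampt, Nmnat3 and Sirt1), against 26.9% of all genes. Under DRF 0 of 10 passed, against 12.7% of all genes. At an unadjusted p under 0.05, 5 members under NRF and 3 under DRF passed, against 36.5% and 25.3% of all genes. JTK_CYCLE alone called 3 and 0, against 24.9% and 12.3%. A limma F test of the cosine and sine called 4 and 3, against 37.3% and 22.3%. Those 3 under DRF were Nmnat3, Sirt1 and Cd38. The limma test ran on the recovered log2(CPM + 1), on which the combined test called 2 members under DRF, Nmnat3 (adjusted p = 0.0282) and Cd38 (0.0455), against 15.2% of all genes, so the count of 0 is not stable to the values or the test. Without the pair of libraries apart, 2 members passed under DRF in the combined test, against 16.4% of all genes. The difference in rhythm was called for 6 members in clock time (Nampt, Nmnat3, Nmrk1, Sirt1, Sirt3 and Sirt6), against 36.0% of all genes. The 5 blood markers were called in clock time too (adjusted p from 0.000787 to 0.0392) and 0 of them after alignment. Over the 56 libraries, r with the blood list was 0.41 for Nmnat3, 0.49 for Nmrk1, 0.43 for Sirt3 and -0.43 for Sirt6. It was 0.25 for Nampt and 0.003 for Sirt1. Of the 6 adipocyte markers, 4 were called in clock time and 0 after alignment. For these 6 members, r with the adipocyte list ran from -0.47 for Sirt6 to 0.35 for Nampt. The part of blood and of adipocytes in these differences was not tested. After alignment to food the difference was called for 4 (Nampt, Nmnat3, Sirt1 and Cd38), against 14.9%. Also called after alignment were 2 of the 5 progenitor markers, 2 of the 5 B cell markers and 1 of the 5 endothelial markers. Over the 56 libraries, r with the progenitor list was -0.48 for Nampt, -0.06 for Nmnat3, 0.30 for Sirt1 and 0.42 for Cd38. With the B cell list it ran from -0.31 for Nampt to 0.33 for Nmnat3. The part of these cells in the aligned differences was not tested. For Nmrk1, Sirt3 and Sirt6 the difference was called in clock time and not after alignment, with adjusted p of 0.803, 0.911 and 0.862, which does not show that the aligned profiles are alike.

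The mean level was called for 6 of the 10 members. Nampt, Nmnat1 and Parp1 were higher under DRF (3 of 10, against 11.4% of all genes), and Nnmt, Sirt1 and Cd38 were lower (3 of 10, against 10.3%). The changes were modest, with 1.17-fold, 1.14-fold and 1.12-fold levels for the first 3 and 0.784-fold, 0.906-fold and 0.898-fold levels for the others. For Nampt the mean difference was 0.23 (SE 0.06, adjusted p = 0.00306), for Nmnat1 0.19 (SE 0.06, adjusted p = 0.00964) and for Sirt1 -0.14 (SE 0.05, adjusted p = 0.0213). Nmnat3 (-0.15, SE 0.08), Nmrk1 (0.06, SE 0.04), Sirt3 (0.03, SE 0.04) and Sirt6 (0.01, SE 0.04) did not pass. Markers of other cells moved beside these means. All 5 blood markers were higher under DRF (0.44 to 0.66, summed level 176 to 746 CPM under NRF and 209 to 859 CPM under DRF). Of the 5 mesothelial markers 3 were lower, and all 5 summed to 229 to 617 CPM under NRF and 191 to 565 CPM under DRF. Over the 56 libraries, Nmnat1 ran with the blood list (r = 0.51), as did Parp1 (0.39). Parp1 (r = -0.58), Nampt (-0.48) and Nmnat1 (-0.42) ran against the progenitor list, whose summed level was at most 3371 CPM (median 2413) under NRF and 1478 to 2515 CPM (median 1832) under DRF. The part of these cells in the differences was not tested. The median difference was 0.02 over the members and -0.00036 over all genes. Of 11 alternative fits, Nampt passed in 11, Parp1 in 10, Nnmt and Nmnat1 in 9, Sirt1 in 8 and Cd38 in 6. Without replicate 1 of every group, only Nampt and Nmnat1 passed, and without replicate 3 or replicate 4 neither Sirt1 nor Cd38 did.

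**Figure D4:**
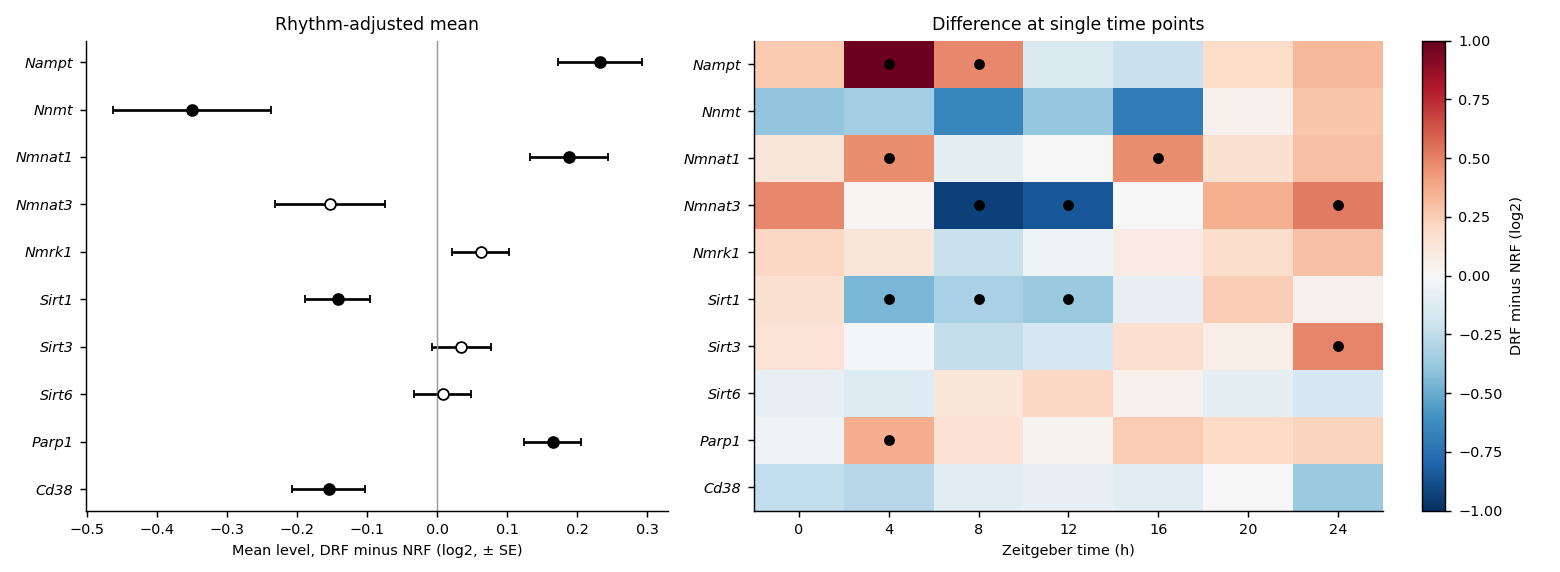
Left, difference in rhythm-adjusted mean between DRF and NRF (log2) with its standard error for each member, filled where the adjusted p is under 0.05. Right, difference at each time point as colour, with black dots on the 12 of 70 differences called, 4 of them at ZT4.

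Of the 70 differences at single time points, 12 were called in 6 members. Higher levels under DRF made up 7 of the 70 (10%), against 7.34% of all such tests over all genes, and lower levels 5 (7.14%), against 6.51%, so these shares are close to the background. The calls were at ZT4 (4), ZT8 (3), ZT12 (2), ZT16 (1) and ZT24 (2), and 0 at ZT0 and ZT20. The groups did not overlap in 8 of the 12, against 79.0% of all called differences over all genes. Nnmt, Nmrk1, Sirt6 and Cd38 had no call at a single time point. Without the pair of libraries apart, Nmrk1 (0.35, SE 0.10, adjusted p = 0.0149) and Nmnat3 (0.54, SE 0.18, adjusted p = 0.0412) were called higher at ZT0. Whichever replicate number was left out, the calls of Nampt, Nmnat1 and Parp1 at ZT4, Nmnat3 at ZT8 and ZT12 and Sirt3 at ZT24 remained. That of Sirt1 at ZT4 was lost without replicate 2, and those of Nampt at ZT8, Nmnat1 at ZT16, Nmnat3 at ZT24 and Sirt1 at ZT8 and ZT12 without 2 or 3 of the 4 numbers in turn. Without replicate 4, Nmnat3 at ZT24 was at 0.28 and Sirt1 at ZT8 at -0.20.

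Other genes of NAD metabolism were read from a list of 47, of which 46 were in the table. In mean level, 3 were higher under DRF (6.52%, against 11.4% of all genes) and 11 lower (23.9%, against 10.3%), and the median difference was -0.05. Parp3, of the PARP family, had the largest difference (0.35, SE 0.06, adjusted p = 5.39e-05). Kmo, of tryptophan breakdown (-0.33, SE 0.06, adjusted p = 3.93e-05), Parp10 (-0.30, SE 0.05, adjusted p = 2.59e-06) and Haao, of the same breakdown route as Kmo (-0.28, SE 0.09, adjusted p = 0.0154), were lower. Haao lay near the floor, with a mean log2(CPM + 1) of 0.85, under the level of 1 used as a filter elsewhere. Of the 16 genes of PARPs and ADP-ribose removal, 1 was higher and 5 were lower, and of the 10 de novo and Preiss-Handler genes 1 was higher and 3 were lower. With any replicate number left out, fewer of the 46 were called for mean level, counting both directions together. The share of all genes in these smaller fits is not given, so they do not show whether the higher share of lower genes holds. No excess of lower genes is read. Of the 5 macrophage markers and of the 5 progenitor markers, 3 each were lower under DRF too. The part of these cells in the list was not tested. Rhythms were called for 20 of the 46 under NRF (43.5%, against 26.9% of all genes) and 9 under DRF (19.6%, against 12.7%). With a replicate number left out these counts were 12 to 14 and 0 to 5, and without the ZT24 libraries 3 remained under DRF. The share of all genes in these smaller fits is not given, so they do not show whether the higher shares hold. No excess over all genes is read from these counts.

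The rhythm differed in clock time for 25 of these 46 genes (54.3%, against 36.0% of all genes) and after alignment to food for 8 (17.4%, against 14.9%). The count after alignment was lower with any replicate number left out, where the share of all genes is not given. All 4 sirtuins outside the members were called in clock time and 0 after alignment, which does not show that their aligned profiles are alike. The combined test called a rhythm for 1 of them under NRF, Sirt7 (adjusted p = 0.0377), and for 0 under DRF. The clock-time difference of Sirt7 was close to the threshold (limma F test, adjusted p = 0.0457). By the distance between the fitted cosines, the largest called differences in clock time were those of Nt5e, the ecto-nucleotidase CD73, Aox3, an aldehyde oxidase, Nadk2, the mitochondrial NAD kinase, and Parp10. Nadk2 peaked at 8.34 h (SE 0.44) under NRF and 22.6 h (SE 0.77) under DRF, beside 8.30 h and 0.52 h for Nmnat3. Among genes called after alignment, Aox3, Slc25a51, the mitochondrial NAD carrier, Ahcy, which hydrolyses the by-product of methylation, and Naprt, which starts the route from nicotinic acid, had the largest differences. Slc25a51 peaked at 17.6 h (SE 0.52) under NRF, beside 16.6 h for Nampt, and at 9.81 h (SE 0.83) under DRF. Its amplitudes were 0.39 (SE 0.06) and 0.27 (SE 0.06), a difference of -0.12 (SE 0.08), and its DRF rhythm was not called in the combined test (adjusted p = 0.209).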

How the data were processed

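Polyadenylated RNA of 56 VAT libraries was sequenced with a kit that does not mark strand, so reads shared by Nampt and Gdap10, Nmnat1 and Tmem274, Nmnat3 and Gm28530, Parp1 and Mir6904, Cd38 and Gm16014 or Gm16015, or Sirt3 and Ric8a or Psmd13 cannot be told apart where these genes overlap. The submitters' processing notes name HISAT2 2.0.5, featureCounts 1.5.0-p3 and mm10. The deposited table, named TPM, holds by its values a score: log2(CPM + 1) divided by exon length and rescaled per library. Whole reads were recovered from its steps (99.997% of the values checked were within 0.02 of a whole number, with lengths taken from the values for 901 genes), and 1 gene, Scd1, was not resolved. The plan had assumed linear TPM, and the limma tests were moved to the recovered log2(CPM + 1), whose pseudocount of 1 understates the change of low genes.

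Rhythm was tested on the deposited score per regimen by JTK_CYCLE and Lomb-Scargle (on replicate means), combined by Fisher's method, in Python 3.11.15 with scipy 1.17.1. Other tests used limma 3.58.1 (R 4.3.3) with a mean-variance trend: a 24-h cosine and sine per regimen gave mean level and rhythm in clock time or after a 12-h shift, and the 14 group means gave single time points. The shift assumes food phases 12 h apart. Amplitudes and peak times carry delta-method standard errors. Benjamini-Hochberg adjustment ran over all genes, per time point for single times, and an adjusted p under 0.05 was called. Scripts were tested on simulated data. Promoters are from RefSeq (GRCm38.p6), gene positions from GRCm38. The members, the NAD list and the marker lists were chosen with earlier results of these data known. Named are all members, the list genes with the 4 largest called differences in mean and in each rhythm difference, the 5 genes most like Nampt or Nnmt, and markers beside a member. Alternatives covered the rhythm test and its values, filter, scaling, pseudocount, replicate block, ZT24 libraries, the pair of libraries apart, each replicate number and the threshold.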

Additional observations from a re-analysis of the deposited data

Results flagged for a closer look

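In 5 of the 140 groups of 4 libraries tested, the highest or lowest library stood far from the other three by Dixon's ratio, where chance marks about 1 in 20 groups. These were the highest Nmnat1 value at DRF ZT16 (4.14, replicate 1) and the highest Nmnat3 value at NRF ZT0 (4.42, replicate 4). The others were the lowest Nmrk1 value at DRF ZT0 (2.66, replicate 4, a library of the pair apart), the lowest Sirt1 value at NRF ZT4 (3.82, replicate 1) and the highest Parp1 value at DRF ZT16 (6.25, replicate 4).

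The 24-h rhythm differed between the regimens in clock time, by limma's F test, for Nampt (adjusted p = 2.40e-05), Nmnat3 (2.86e-07), Nmrk1 (0.00892), Sirt1 (0.000154), Sirt3 (0.00171) and Sirt6 (0.0378). After alignment to food it differed for Nampt (adjusted p = 6.67e-07), Nmnat3 (0.00985), Sirt1 (0.039) and Cd38 (0.016).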

How the results depend on the processing

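Counts of members within 1.5 times of those reported are not listed. Members rhythmic under DRF numbered 0, and 3 by the limma F test, 2 on recovered log2(CPM + 1), 1 among genes with a mean of at least 1 and 2 without the pair of DRF libraries apart. At an adjusted p under 0.01, 3 members differed in mean level and 2 in rhythm after alignment. Without the ZT24 libraries, 2 differed after alignment. With each replicate number left out, 2 to 3 members were rhythmic under NRF and 0 under DRF, 4 to 5 differed in clock time, 1 to 3 after alignment and 2 to 4 in mean level, and 6 to 11 single differences were called. Among the other NAD genes, the threshold of 0.01 left 6 called for mean level, 3 after alignment, 13 rhythmic under NRF and 3 under DRF. The limma F test called 17 under DRF, and 3 passed without the ZT24 libraries. With a replicate number left out, 6 to 11 were called for mean level, 2 to 6 after alignment, 12 to 14 under NRF and 0 to 5 under DRF. The sign of 2 mean differences that were not called turned: Sirt3 to -0.0075 without the ZT24 libraries, and Sirt6 to -0.011 without the pair apart and to between -0.023 and 0.042 with a replicate number left out. Same-numbered libraries of the 2 regimens at one time correlated over 0.1 in 9 of 28 pairs, with r from -0.31 to 0.34. Between groups, the median r was 0.04 for libraries of the same number and -0.01 for those of different numbers. The labels do not say what the numbers mean, so no pairing was assumed, and none is excluded. With the replicate number as a block, 6 members were called in clock time, 4 after alignment and 6 for mean level, and 12 single differences. The causes of these changes were not tested, except that leaving out libraries also leaves fewer samples. For fits without a replicate number or the ZT24 libraries, the share of all genes called is not given. Those counts are therefore not compared with all genes. Nmrk1 had the fewest reads, 198 to 338 per library, so counting error weighs most on its small differences.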
